A study of Mus musculus with 16 samples.

Results

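The members described here are 9 genes of transforming growth factor beta (TGF-beta) signalling, taken by symbol from the deposited table of mouse quadriceps: the ligands Tgfb1, Tgfb2 and Tgfb3, the receptors Tgfbr1 and Tgfbr2, and the latent binders Ltbp1, Ltbp2, Ltbp3 and Ltbp4. All 9 of the 9 were found among the 17370 genes of the table, and all 9 passed the filter on low counts that left 15411 genes to test. The quadriceps, which straightens the knee, was taken after transection of the anterior cruciate ligament (ACL), a ligament of the knee, and RNA was sequenced in 16 libraries of 4 groups of 4. The groups were the healthy and the injured quadriceps of mice that received 0.5% sucrose in drinking water as placebo, and the healthy and the injured quadriceps of mice that received 40 mg/kg of an inhibitor of CSF1-R, the receptor of the macrophage growth factor CSF1. Treatment lasted 7 days after transection in every group. By their names the libraries come from both limbs of 8 animals, so that the healthy muscle also comes from an operated mouse. The names of all healthy libraries end in L and those of all injured libraries in R. If these letters give the side, injury and side of the body cannot be told apart. Strain, age and sex are not given in the sources used here, and whole muscle was sequenced. Replicates, which the labels call biological, are named by group and number.

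TGF-beta is secreted in a latent form, in which the mature dimer stays held by its own propeptide. Ltbp1 and Ltbp3 bind this latent complex covalently and anchor it in the extracellular matrix, Ltbp4 binds it more weakly, and Ltbp2 binds fibrillin but not the latent complex. The released ligand is bound by Tgfbr2, which phosphorylates and activates Tgfbr1, and Tgfbr1 in turn phosphorylates the transcription factors Smad2 and Smad3. In skeletal muscle the pathway is known for driving fibrosis and for restraining myogenic differentiation, and a variant of Ltbp4 modifies the course of muscular dystrophy in mice.

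All libraries held the RNA of muscle: the summed level of 10 muscle fibre markers was 92334 to 178029 CPM (counts scaled to a common library size, with library sizes normalised by TMM). Library totals were 20.12 to 27.13 M counts. There 3 counts, taken as the floor, equal between 0.111 and 0.149 CPM before TMM scaling, which covers counting error only. After TMM scaling the floor can lie higher, as the 3 counts of Ltbp2 in healthy inhibitor 4 gave 0.159 CPM. A set of 4 libraries stood apart by Prg4, the lubricin of joint surfaces. Healthy placebo 4 had 251 CPM of it, injured placebo 2 had 220, injured placebo 3 had 286 and healthy inhibitor 1 had 169, against 3.97 to 19.5 CPM in the other 12. Member comparisons below are given with and without these 4 libraries. In bulk RNA, fewer cells of a type and less RNA per cell cannot be told apart.

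The promoter windows of Tgfb1, Tgfbr2, Ltbp1 and Ltbp2, the 4 members that were highest in the same 3 libraries (described below), are shown as a description. Marker genes of other cells were also high in those libraries. Whether the promoters have a part in the shared pattern was not tested. Each runs from 250 bases before to 50 bases after the RefSeq start (build GRCm38.p6), 5′ to 3′ along the gene. Where RefSeq lists several windows (2 for Ltbp1 and Tgfbr1, 3 for Ltbp4), the one nearest the annotated gene start was used and the others were not searched for single members. Capitals mark CAGAC on either strand, the core of the element that SMAD proteins bind, and the AP-1 element TGANTCA on either strand.
Tgfb1 promoter, chr7:25686752-25687051, plus strand: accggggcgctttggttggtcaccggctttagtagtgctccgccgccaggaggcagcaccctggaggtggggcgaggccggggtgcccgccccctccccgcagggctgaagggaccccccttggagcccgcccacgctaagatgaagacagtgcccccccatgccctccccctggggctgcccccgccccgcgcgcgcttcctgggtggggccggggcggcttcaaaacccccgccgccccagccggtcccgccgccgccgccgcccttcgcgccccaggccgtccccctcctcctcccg
Tgfbr2 promoter, chr9:116175314-116175613, minus strand: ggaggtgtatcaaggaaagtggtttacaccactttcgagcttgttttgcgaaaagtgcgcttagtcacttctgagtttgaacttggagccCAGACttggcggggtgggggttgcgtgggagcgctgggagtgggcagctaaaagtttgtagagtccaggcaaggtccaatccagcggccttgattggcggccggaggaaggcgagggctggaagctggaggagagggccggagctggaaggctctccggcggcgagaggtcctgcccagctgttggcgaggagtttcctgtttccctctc
Ltbp1 promoter, chr17:75005279-75005578, plus strand: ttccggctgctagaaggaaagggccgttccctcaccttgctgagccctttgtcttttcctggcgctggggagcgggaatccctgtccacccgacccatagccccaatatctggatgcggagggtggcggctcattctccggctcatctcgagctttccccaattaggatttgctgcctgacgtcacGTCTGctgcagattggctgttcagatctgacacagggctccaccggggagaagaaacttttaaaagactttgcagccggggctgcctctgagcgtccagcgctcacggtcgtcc
Ltbp2 promoter, chr12:84876442-84876741, minus strand: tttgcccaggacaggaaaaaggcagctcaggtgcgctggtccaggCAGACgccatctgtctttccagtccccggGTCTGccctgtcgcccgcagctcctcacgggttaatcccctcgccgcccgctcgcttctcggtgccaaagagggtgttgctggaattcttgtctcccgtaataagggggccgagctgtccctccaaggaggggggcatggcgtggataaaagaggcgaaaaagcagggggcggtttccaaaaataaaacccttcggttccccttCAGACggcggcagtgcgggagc
CAGAC stood 3 times in the Ltbp2 window, once each in those of Tgfbr2 and Ltbp1, and not in that of Tgfb1. Of the 8 members with a window, 5 held it, and so did 49.6% of the 32851 windows of this length. TGANTCA was in none of these 4 windows and in 7.81% of all windows. Among the members the Ltbp3 window alone held it, in a match that overlapped a CAGAC. The Sp1 element GGGCGG, on either strand, occurred 6 times in the Tgfb1 window, 2 times in that of Ltbp2 and 0 times in those of Tgfbr2 and Ltbp1. It also occurred in the windows of Tgfbr1 (2 times) and Ltbp4 (3 times), and in 35.7% of all windows. GC content was 77% in the Tgfb1 window, 59% in that of Tgfbr2, 58.7% in that of Ltbp1 and 61% in that of Ltbp2, against a median of 52.7% over all windows. Such matches are a description of letters and no evidence of binding.

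The levels were first set in order per exon length, since longer transcripts collect more counts. The length was that of all annotated exons of a gene joined over its transcripts, such as 5042 bases for Tgfb1 and 3383 for Tgfb3. It can exceed the length of the transcripts present, so that the order and the shares of the ligands also depend on the annotation. Ltbp4 had the highest median over the 16 libraries, 18.2 CPM per kb of exon, followed by Tgfb3 at 14.5, Ltbp3 at 7.69, Tgfbr1 at 6.15, Tgfbr2 at 5.06 and Tgfb2 at 4.38. Ltbp1 at 1.02, Tgfb1 at 0.983 and Ltbp2 at 0.131 CPM per kb stood lowest. Several neighbours in this order overlapped from library to library: Ltbp4 ranged from 12.3 to 22.7 and Tgfb3 from 11.1 to 18.4 CPM per kb, Tgfbr1 from 5.02 to 9.05 and Tgfbr2 from 3.65 to 11.4, and Ltbp1 from 0.693 to 2.05 and Tgfb1 from 0.682 to 4.13. Of the 3 ligands, Tgfb3 made up 72.1 ± 3.08% of the summed level per length in healthy placebo, 70.1 ± 3.06% in injured placebo, 71.7 ± 4.38% in healthy inhibitor and 74 ± 3.12% in injured inhibitor quadriceps (SD, n = 4). The share of Tgfb1, the isoform best known from immune cells and fibrosis, was 5.28 ± 1.53%, 9.3 ± 5.79%, 5.21 ± 0.873% and 5.33 ± 0.879% in the same order of groups.

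**Figure D1:**
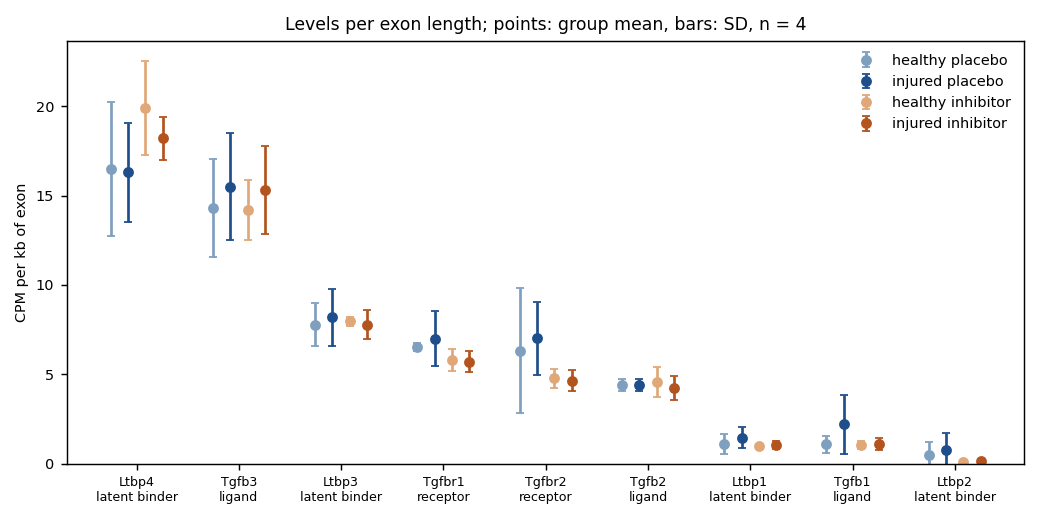
Level of each member per kb of exon (y axis, CPM per kb) by gene (x axis), with a point for the mean of each of the 4 groups and bars for the SD (n = 4, cut at 0). Ltbp4 and Tgfb3 lie highest, with medians of 18.2 and 14.5, and Ltbp2 lowest at 0.131.

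The ligand genes differed in how steady they were. Tgfb1 (ENSMUSG00000002603, chromosome 7 from 25687002 to 25705077, GRCm38) was measured, from replicate 1 to 4, at 4.83, 4.07, 3.74 and 9.08 CPM in the healthy and 3.44, 20.8, 15.2 and 4.83 CPM in the injured placebo libraries. In inhibitor-treated mice it stood at 6.08, 4.43, 6.43 and 3.97 CPM in the healthy and 5.4, 5.08, 8.05 and 3.99 CPM in the injured libraries. Injured placebo 2 and 3 were the highest libraries and healthy placebo 4 came next, while the other placebo libraries, at 3.44 to 4.83 CPM, overlapped the inhibitor libraries, at 3.97 to 8.05 CPM. Tgfb2 (ENSMUSG00000039239, chromosome 1 from 186622792 to 186705989), a ligand that needs the co-receptor betaglycan to bind Tgfbr2 well, was measured, from replicate 1 to 4, at 26.2, 28.1, 23.6 and 24 CPM in the healthy and 28.2, 25.8, 24.8 and 23.6 CPM in the injured placebo libraries. Under inhibitor the values were 19.7, 27.2, 31.5 and 26.9 CPM in the healthy and 22, 21.2, 29.7 and 25 CPM in the injured libraries. It was the steadiest member, with a coefficient of variation of 12.3% over the 16 libraries against 69.3% for Tgfb1. Tgfb3 (ENSMUSG00000021253, chromosome 12 from 86056745 to 86079041) was measured, from replicate 1 to 4, at 41.9, 43.9, 46 and 62.1 CPM in the healthy and 53.8, 58.7, 59.2 and 37.4 CPM in the injured placebo libraries. With inhibitor its levels were 54.6, 40.8, 49.6 and 47 CPM in the healthy and 57.4, 48.3, 59.6 and 41.7 CPM in the injured libraries. Its highest library was healthy placebo 4, but injured inhibitor 3 was as high as injured placebo 2 and 3, and all 4 groups overlapped.

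The receptors parted in the same way, with the ligand-binding Tgfbr2 varying and its partner Tgfbr1 steady. Tgfbr1 (ENSMUSG00000007613, chromosome 4 from 47353222 to 47414931) was measured, from replicate 1 to 4, at 42.9, 44.7, 41.1 and 42.2 CPM in the healthy and 59.2, 39.3, 47.3 and 37.1 CPM in the injured placebo libraries. In inhibitor-treated mice it stood at 38.2, 38.3, 32.8 and 42.5 CPM in the healthy and 42, 38.7, 33.2 and 35.3 CPM in the injured libraries. Its highest library was injured placebo 1, where no other member was highest. Tgfbr2 (ENSMUSG00000032440, chromosome 9 from 116084293 to 116175360) was measured, from replicate 1 to 4, at 36.8, 47.2, 29.9 and 93.6 CPM in the healthy and 45.1, 74.5, 69.2 and 41.5 CPM in the injured placebo libraries. Under inhibitor the values were 41.4, 33.5, 43.7 and 37.8 CPM in the healthy and 39.1, 32.4, 44.2 and 36.3 CPM in the injured libraries. Healthy placebo 4 and injured placebo 2 and 3 stood above all other libraries, none of which passed 47.2 CPM.

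Among the latent binders, Ltbp1 and Ltbp2 shared the libraries that were high for Tgfbr2. Ltbp1 (ENSMUSG00000001870, chromosome 17 from 75005568 to 75392512) was measured, from replicate 1 to 4, at 8.6, 11.2, 7.61 and 20.7 CPM in the healthy and 10.7, 21.9, 20.5 and 9.36 CPM in the injured placebo libraries. With inhibitor its levels were 11.6, 10, 10.7 and 9.37 CPM in the healthy and 11.6, 7.41, 12.9 and 12.6 CPM in the injured libraries. Ltbp2 (ENSMUSG00000002020, chromosome 12 from 84783212 to 84876532) was measured, from replicate 1 to 4, at 0.973, 1.45, 0.957 and 12.7 CPM in the healthy and 1.25, 17.5, 5.33 and 1.01 CPM in the injured placebo libraries. In inhibitor-treated mice it stood at 1.97, 0.764, 1.11 and 0.159 CPM in the healthy and 0.765, 0.318, 1.03 and 2.42 CPM in the injured libraries. It was the least counted member, from 3 counts in healthy inhibitor 4 to 481 in injured placebo 2, and the most variable, with a coefficient of variation of 158%. For both genes the same 3 placebo libraries were the highest, and the remaining 13 libraries reached at most 12.9 CPM for Ltbp1 and 2.42 for Ltbp2.

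Ltbp3 and Ltbp4, the more abundant binders, varied less. Ltbp3 (ENSMUSG00000024940, chromosome 19 from 5740904 to 5758532) was measured, from replicate 1 to 4, at 64.2, 64, 67 and 86.7 CPM in the healthy and 64.4, 95.9, 68.9 and 68.2 CPM in the injured placebo libraries. Under inhibitor the values were 72.5, 70.9, 75.4 and 69.8 CPM in the healthy and 69.7, 61.3, 72.4 and 78.9 CPM in the injured libraries. Injured placebo 2 and healthy placebo 4 were highest, but injured placebo 3 was not set apart. Ltbp4 (ENSMUSG00000040488, chromosome 7 from 27305136 to 27337692) was measured, from replicate 1 to 4, at 79.6, 134, 94.5 and 119 CPM in the healthy and 92.5, 87.7, 117 and 124 CPM in the injured placebo libraries. With inhibitor its levels were 147, 125, 136 and 107 CPM in the healthy and 109, 113, 124 and 125 CPM in the injured libraries. Its highest library was healthy inhibitor 1, and all 4 groups overlapped. Whether counting used strand is not given in the sources used here.

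**Figure D2:**
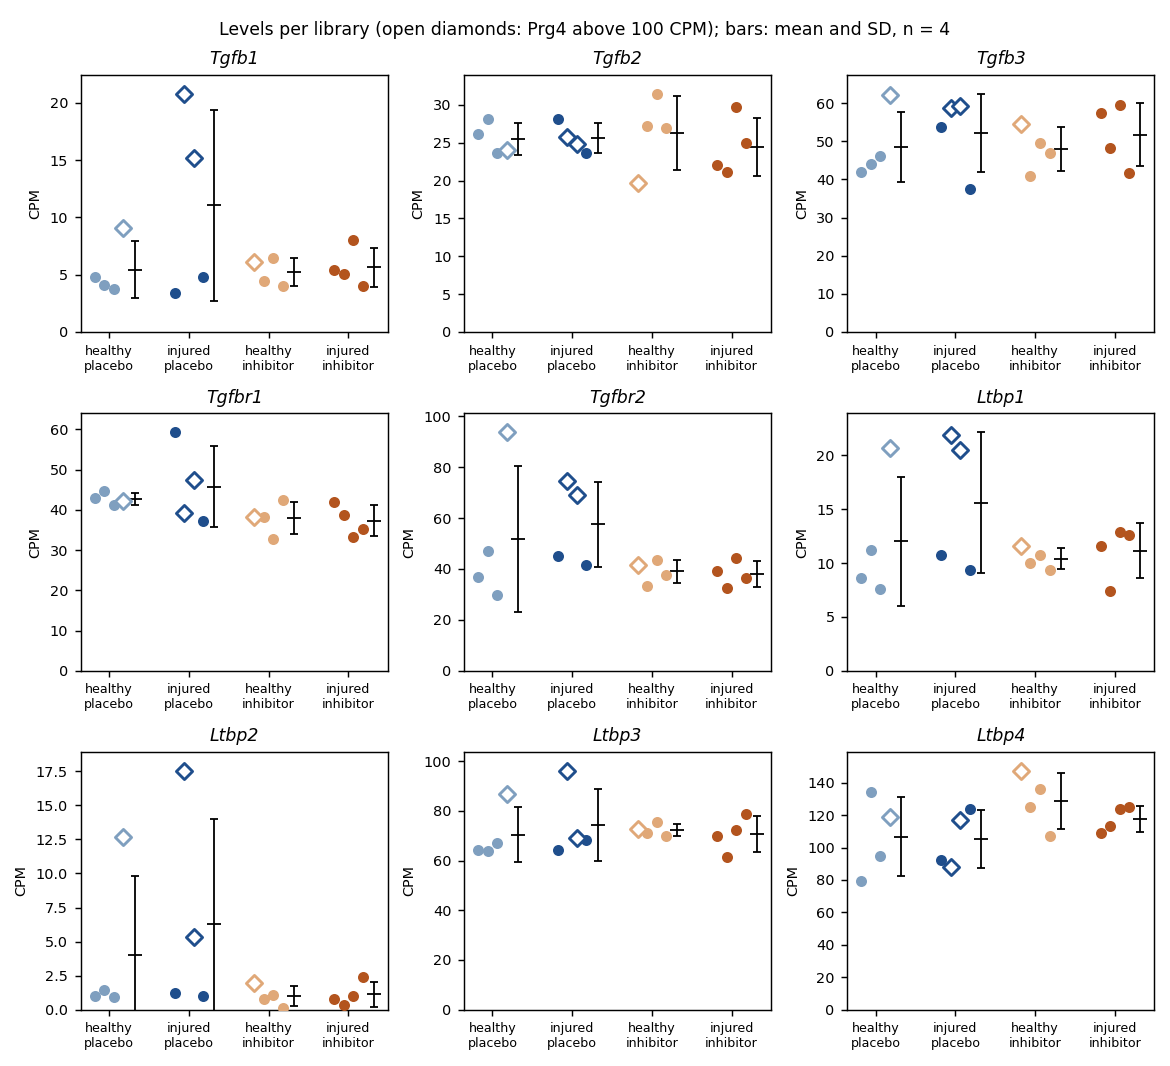
Level of each of the 9 members (y axis, CPM, from 0) in every library of the 4 groups (x axis); open diamonds are the 4 libraries with Prg4 above 100 CPM, and the bars are the mean and SD (n = 4, cut at 0). The open diamonds of both placebo groups lie highest for Tgfb1, Tgfbr2, Ltbp1 and Ltbp2, while that of the healthy inhibitor group lies among the other libraries.

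Marker genes of other cells were high in the same libraries. The 12 macrophage markers, all in the table, summed to 416 CPM in healthy placebo 4, 755 in injured placebo 2 and 711 in injured placebo 3, and to 25.3 to 135 CPM in the other 13 libraries. By group this sum ran from 25.3 to 416 CPM in healthy placebo and 91.4 to 755 in injured placebo. It ran from 43.4 to 132 CPM in healthy inhibitor and 48.5 to 117 in injured inhibitor. Of the 12 genes Fcgr1 and Aif1 were each at 0 in 2 libraries. Lyz2 made up 221, 370 and 372 CPM of the sums in healthy placebo 4 and injured placebo 2 and 3. Cd163 did not follow, at 8.03, 6.07 and 14.6 CPM there and at 12.8 CPM in injured placebo 1. The other macrophage genes lay above every other library in all 3. The 9 markers of fibro-adipogenic progenitors, the mesenchymal cells of muscle, summed to 793, 734 and 666 CPM in these 3 libraries and to 170 to 418 CPM in the others. By group they ran from 170 to 793, 306 to 734, 293 to 417 and 288 to 418 CPM, in the same order of groups. None was at 0 in any library. Col6a3 made up 242, 226 and 142 CPM of the sums in the 3 libraries. Pi16 was at 54.2, 21.3 and 31.6 CPM there and at 51.9 CPM in healthy inhibitor 1. Smoc2 and Dpp4 overlapped the other libraries as well. The other progenitor genes lay above every other library in all 3.

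The fourth library with high Prg4, healthy inhibitor 1, was high in the joint sum, which includes Prg4. In some other lists it was at or near the top of the 12 libraries low in Prg4. Its 10 joint lining and cartilage markers summed to 453 CPM, against 476 to 516 in the other 3 and 228 to 297 in the remaining 12. Prg4, by which these 4 libraries were picked, is in this list, so that the gap was largely set in advance. Clic5, the largest other part, was at 254 CPM in healthy inhibitor 1. It was at 205, 178 and 188 CPM in the other 3 and at 212 to 272 CPM in the remaining 12. Acan was at 0 in 11 libraries, Col10a1 in 10, Has1 in 4, Col2a1 in 2 and Col9a1 in 1. By group the joint sum ran from 236 to 513 CPM in healthy placebo, 228 to 516 in injured placebo, 245 to 453 in healthy inhibitor and 257 to 297 in injured inhibitor. Its macrophage sum was 132 CPM and its progenitor sum 417 CPM, against at most 135 and 418 CPM in those 12. Its monocyte and neutrophil sum, 15 CPM, lay above all of them, at 2.1 to 9.71 CPM. In healthy inhibitor 1 S100a8 made up 4.53 and S100a9 4.85 CPM of that sum. There Tgfb1 was at 6.08, Tgfbr2 at 41.4, Ltbp1 at 11.6 and Ltbp2 at 1.97 CPM, each within the range of the 12 libraries low in Prg4. Those ranges were 3.44 to 8.05, 29.9 to 47.2, 7.41 to 12.9 and 0.159 to 2.42 CPM. Monocyte and neutrophil markers (7 genes) summed to 39.6, 78.7 and 57.5 CPM in healthy placebo 4 and injured placebo 2 and 3. Retnlg was at 0 in 7 libraries, S100a9 in 3, S100a8 in 2 and Plac8 in 1. The genes of this list did not all follow the sum. In these 3 libraries, in the same order, Ccr2 was at 17.5, 54.9 and 49 CPM. S100a8 was at 5.78, 3.89 and 0.0802 CPM and S100a9 at 7.58, 4.69 and 0.0401 CPM in the same 3. The 5 platelet markers in the table, of 6 listed, summed to 9.61, 18.9 and 15.8 CPM there and to 1.44 to 4.56 CPM elsewhere, but Gp9 was at 0 in 13 libraries, Gp1bb in 11 and Ppbp in 1, and Pf4 made up 7.01, 17 and 14.1 CPM of those sums. Tendon markers (8 genes) summed to 349, 435 and 403 CPM there and to 77 to 296 elsewhere. Of these genes only Thbs4, at 126, 235 and 166 CPM, and Tnmd, at 14.9, 13.4 and 18.5 CPM, lay above every other library in all 3. The other tendon genes overlapped, with Chodl at 6.61, 7.34 and 9.06 CPM in the 3 libraries and at 5.14 to 13.8 CPM elsewhere. Endothelial markers (7 genes) were lowest in the same 3 libraries, at 243, 210 and 202 CPM against 253 to 343. Smooth muscle and pericyte markers (7 genes) ran from 277 to 424 CPM over all libraries, lowest in injured placebo 2 and 3. Their genes did not all follow this sum. Rgs5, its largest part, was at 156 and 168 CPM in injured placebo 2 and 3, and Rgs5, Myh11 and Notch3 were lowest there. Acta2, at 43.4 and 46.6 CPM, and Cspg4, at 15.2 and 15.4 CPM, were highest there, while Pdgfrb and Cnn1 overlapped the other libraries. The part of these cells in the members' levels was not tested.

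**Figure D3:**
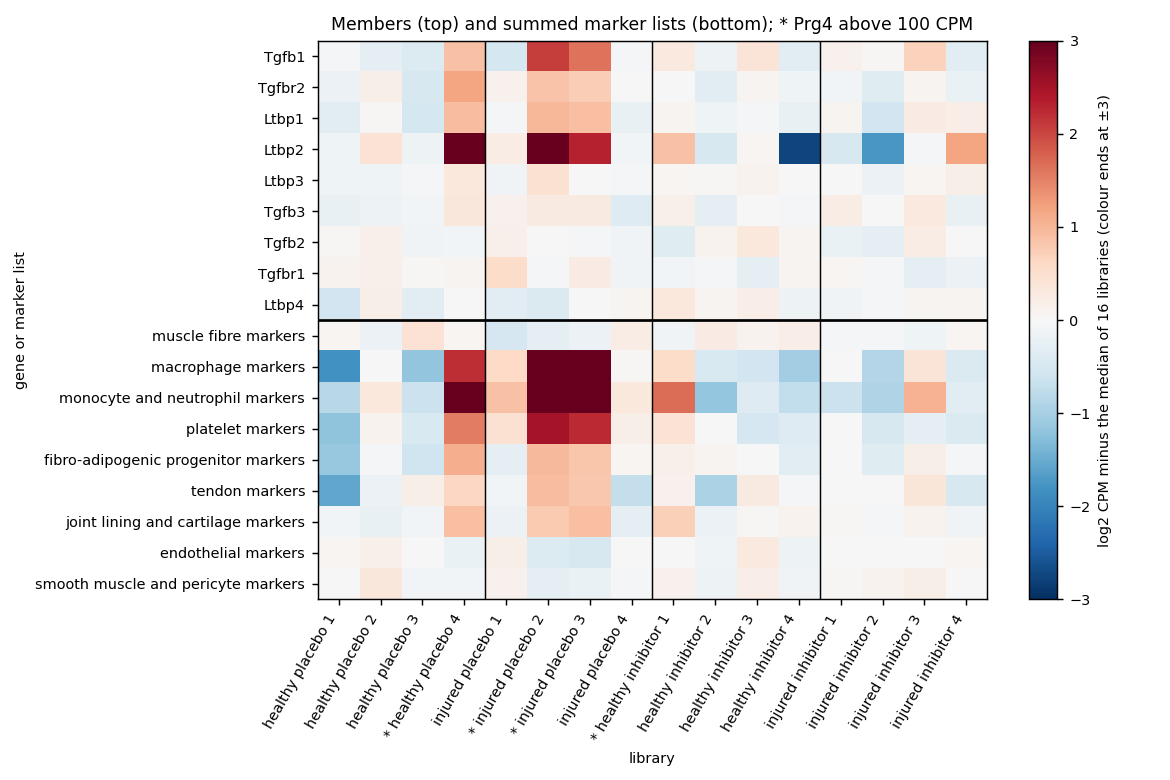
Colour gives log2 CPM minus the median of the 16 libraries for each member (upper rows) and each summed marker list (lower rows), by library (columns, * for Prg4 above 100 CPM); colours end at 3 either way. Healthy placebo 4 and injured placebo 2 and 3 are red for Tgfb1, Tgfbr2, Ltbp1 and Ltbp2 and for macrophage markers, whose sum was 416, 755 and 711 CPM there.

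Over the 16 libraries, Pearson's r of log2 CPM was 0.92 between Tgfbr2 and Ltbp1, 0.88 between Ltbp1 and Ltbp2, 0.85 between Tgfbr2 and Ltbp2 and 0.83 between Tgfb1 and Ltbp1. Ltbp3 was at 0.76 with Ltbp2, 0.75 with Ltbp1 and 0.65 with both Tgfb1 and Tgfbr2, and Tgfb3 was at 0.67 with Ltbp1, 0.66 with Tgfb1 and 0.65 with Tgfbr2. These values describe likeness and carry no test, since the libraries share animals and groups and 3 libraries stand far from the rest. Between Tgfb1 and Tgfb2 r was -0.02, between Tgfbr1 and Tgfbr2 0.21 and between Ltbp4 and Ltbp1 0.07. The genes whose pattern was most like that of Tgfb1 were Gpx7, Ccdc141 and Efhd2, at r of 0.96, 0.95 and 0.94. For Tgfbr2 they were Spp1, the secreted matrix protein osteopontin, Iqgap1, a scaffold of the cytoskeleton, and Sec61a1, a channel of the endoplasmic reticulum, each at 0.95. Plagl1, Anxa5 and Gm13456 were most like Ltbp1, at 0.98, 0.97 and 0.96, and Sh3gl1 and Naip2 most like Ltbp2, both at 0.96, followed at 0.95 by a gene without a symbol (ENSMUSG00000118668). The closest to Tgfb3 were Mgp, an inhibitor of calcification in matrix, at 0.89, and Ccl21a and Itgbl1 at 0.86. Those of the steadier members were lower: Clcn7, a lysosomal chloride transporter, at 0.87 for Tgfb2, Nsmce4a at 0.86 for Tgfbr1, Myo1e at 0.86 for Ltbp3 and Hmcn2 at 0.83 for Ltbp4.

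The first comparison asks how injured and healthy quadriceps differed under placebo. Tgfb1 gave the largest difference of the 9 members, with a mean level of 5.43 ± 2.48 CPM without and 11.1 ± 8.36 CPM after injury (SD, n = 4). On the log2 scale this is a difference of 1.03 ± 0.48 (SE). It was not called (unadjusted p = 0.048, adjusted p = 0.64, edgeR's quasi-likelihood test with Benjamini-Hochberg adjustment). Within animals it was higher in the injured limb of animals 2 and 3 and lower in animals 1 and 4, at log2 ratios of 2.33, 1.99, -0.48 and -0.90. Ltbp2 averaged 4.01 ± 5.77 and 6.27 ± 7.74 CPM, a log2 difference of 0.65 ± 1.03, Ltbp1 12 ± 5.99 and 15.6 ± 6.49 CPM (0.38 ± 0.32), and Tgfbr2 51.8 ± 28.7 and 57.6 ± 16.7 CPM (0.15 ± 0.29). For these 3 genes the injured limb was higher in 3 of 4 animals, and animal 4, whose healthy limb is healthy placebo 4, went the other way. The remaining 5 members lay between -0.02 and 0.11 on the log2 scale.

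No member was called in this comparison in either direction, where edgeR called 0% of all genes, and none was called by DESeq2 or limma-voom. Tgfb1 was the only member past an unadjusted p of 0.05, a rule that 4.61% of all genes passed as higher and 7.24% in either direction. No member's groups were free of overlap, which held for 0.87% of all genes as higher and 0.681% as lower. The median log2 difference was 0.11 over the members and 0.01 over all genes tested. In the 12 libraries low in Prg4, where only injured placebo 1 and 4 stand for their group, Tgfb1 was at -0.03 ± 0.31 and Ltbp2 at -0.00 ± 0.72, both at an adjusted p of 1, and Ltbp1 was at 0.13 ± 0.23 (adjusted p = 0.98). With the animal as a block, Tgfb1 was at 0.76 (adjusted p = 0.7).

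The same comparison of limbs was made with inhibitor. All 9 members had log2 differences between -0.13 and 0.19. Tgfb1 had mean levels of 5.23 ± 1.21 CPM without and 5.63 ± 1.73 CPM after injury, a log2 difference of 0.11 ± 0.48, and Tgfbr2 39.1 ± 4.44 and 38 ± 4.94 CPM, a log2 difference of -0.04 ± 0.29 (SD and SE, n = 4). Ltbp4 had the lowest value, -0.13 ± 0.15, and Ltbp2 the highest, 0.19 ± 1.13. No member was called by edgeR, DESeq2 or limma-voom, with 0% of all genes called by edgeR, and none passed an unadjusted p of 0.05, as 1.31% of all genes did (0.766% as higher and 0.545% as lower). Of the members 4 lay above 0, as did 51% of all genes. Without the 4 libraries high in Prg4, Ltbp2 was at 0.72 ± 0.62, Tgfb1 at 0.18 ± 0.25, Ltbp1 at 0.15 ± 0.19, Tgfb3 at 0.17 ± 0.14, Tgfb2 at -0.23 ± 0.13 and Tgfbr2 at -0.01 ± 0.15. The median was -0.02 over the members and 0.00 over all genes. No member's groups were free of overlap, against 1.13% of all genes as higher and 1.11% as lower.

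The difference between the injury effects with and without inhibitor was tested directly. It was below 0 for all 9 members, with a median of -0.12 against -0.00 over all genes, and 49.5% of all genes lay above 0. The size was -0.93 ± 0.68 for Tgfb1 (unadjusted p = 0.19), -0.47 ± 1.53 for Ltbp2 and -0.29 ± 0.45 for Ltbp1, each with an adjusted p of 1. No member was called by edgeR, DESeq2 or limma-voom or passed an unadjusted p of 0.05, where edgeR called 0% of all genes and 2.74% passed the unadjusted rule (1.36% as higher and 1.38% as lower). In the 12 libraries low in Prg4, Tgfb1 was at 0.22 ± 0.40, Ltbp2 at 0.72 ± 0.95 and Ltbp1 at 0.02 ± 0.29. For Tgfb3 the value was -0.00 ± 0.23 in all 16 libraries and 0.13 ± 0.22 in those 12. The remaining 5 members stayed below 0 in the 12 libraries. They were Tgfb2 at -0.22 ± 0.20, Tgfbr2 at -0.20 ± 0.23, Tgfbr1 at -0.18 ± 0.22, Ltbp4 at -0.13 ± 0.25 and Ltbp3 at -0.05 ± 0.14. The shared sign carries no test here.

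Injured quadriceps was then compared between inhibitor and placebo. This comparison shares its libraries with those above, so that the values are only set side by side. Ltbp2 gave the largest difference, from 6.27 ± 7.74 CPM with placebo to 1.13 ± 0.906 CPM with inhibitor (SD, n = 4), a log2 difference of -2.45 ± 1.11 (unadjusted p = 0.045, adjusted p = 0.33). Tgfb1 followed at 11.1 ± 8.36 and 5.63 ± 1.73 CPM, a log2 difference of -0.98 ± 0.48 (adjusted p = 0.35), then Tgfbr2 at -0.60 ± 0.29 (0.36) and Ltbp1 at -0.49 ± 0.32 (0.49). Tgfbr1 gave a smaller but less variable difference, 45.7 ± 9.97 against 37.3 ± 3.86 CPM, a log2 difference of -0.29 ± 0.13 (unadjusted p = 0.035, adjusted p = 0.3). Tgfb2 (-0.07 ± 0.13), Tgfb3 (-0.01 ± 0.16) and Ltbp3 (-0.08 ± 0.13) lay near 0, and Ltbp4 was the only member above it, at 0.16 ± 0.15.

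Of the 9 members 0 were called by edgeR, as were 0% of all genes, and 0 were called by DESeq2 or limma-voom, although these called 248 and 1229 genes in all. Tgfbr1 and Ltbp2 passed an unadjusted p of 0.05 as lower, which 9.03% of all genes did, and none passed as higher, which 5.82% did. No member's groups were free of overlap, against 2.77% of all genes as higher and 2.87% as lower. The median was -0.29 over the members and -0.02 over all genes. In the 12 libraries low in Prg4 these medians were 0.09 and 0.00, with 6 of the 9 members above 0. Without the 4 libraries high in Prg4, Ltbp2 was at 0.02 ± 0.68, Tgfb1 at 0.45 ± 0.29, Ltbp1 at 0.15 ± 0.21 and Tgfbr2 at -0.18 ± 0.17. Tgfbr1 was at -0.36 ± 0.16 (unadjusted p = 0.039, adjusted p = 0.78) in that fit and at -0.13 without injured placebo 1, its highest library.

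In healthy quadriceps the inhibitor and placebo groups gave no member that passed the test. Ltbp2 averaged 4.01 ± 5.77 CPM with placebo and 1 ± 0.755 CPM with inhibitor, a log2 difference of -1.98 ± 1.11 (unadjusted p = 0.096), and stood at -0.69 ± 0.66 in the 12 libraries low in Prg4 and at -0.16 without healthy placebo 4 alone. Tgfbr2 was at -0.41 ± 0.29, at 0.01 ± 0.16 in those 12 libraries and at 0.05 without healthy placebo 4. Ltbp4 was the highest, 107 ± 24.2 against 129 ± 17 CPM, a log2 difference of 0.27 ± 0.15 (unadjusted p = 0.092), and Tgfbr1 was at -0.17 ± 0.13. The 3 ligands lay between -0.05 and 0.05. All adjusted p values were 1, no member was called by edgeR (0% of all genes), DESeq2 or limma-voom, and none passed an unadjusted p of 0.05, as 3.34% of all genes did (1.3% as higher and 2.03% as lower). No member's groups were free of overlap, against 0.96% of all genes as higher and 1.59% as lower. The median was -0.05 over the members and -0.02 over all genes, and 0.14 and -0.00 in the 12 libraries low in Prg4. In the 12 libraries low in Prg4, Ltbp4 was at 0.26 ± 0.17 and Tgfbr1 at -0.18 ± 0.15.

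**Figure D4:**
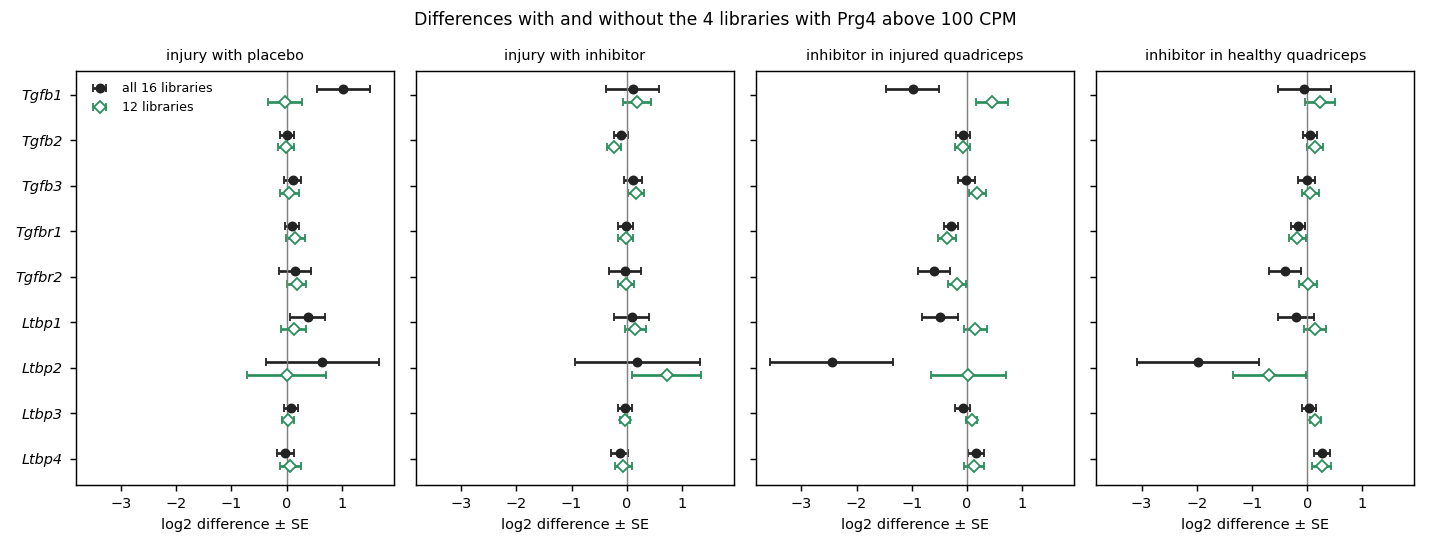
Log2 difference with its SE (x axis) for each member (y axis) in 4 comparisons, from all 16 libraries (black) and from the 12 with Prg4 at or below 100 CPM (green). For the inhibitor in injured quadriceps Tgfb1 is at -0.98 with all libraries and at 0.45 with 12, and Tgfbr1 at -0.29 and -0.36.

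The rest of the pathway was followed in 60 further genes, all of them tested, sorted by role. Of these, 0 were called in any comparison by edgeR. For the inhibitor in injured quadriceps, DESeq2 called 3, which were Bhlhe40, Nrros and Ppm1a, where it called 1.61% of all genes. There limma-voom called 8, which were these 3 and Itgb6, Junb, Smad2, Smurf2 and Tgfbi, where it called 7.97% of all genes. For the inhibitor in healthy quadriceps DESeq2 called Bhlhe40 alone of the 60 and 0.0779% of all genes. Without the 4 libraries high in Prg4 edgeR called none. Of the 60, 5 passed an unadjusted p of 0.05 as higher and 11 as lower for the inhibitor in injured quadriceps, beside 5.82% and 9.03% of all genes. The median was -0.97 over 19 target genes, -0.55 over 19 genes of latency and activation, -0.03 over 14 inhibitors and 0.11 over 6 signal transducers and -0.03 over 2 co-receptors, and -0.02 over all genes. In the 12 libraries low in Prg4 the median was 0.30 over the targets, 0.08 over latency and activation, 0.03 over inhibitors, -0.03 over transducers and -0.15 over co-receptors, and 0.00 over all genes. The collagen gene Col1a1, a target, was at 44.2, 1469, 656 and 68.7 CPM in injured placebo 1 to 4 and at 95.8, 85.7, 208 and 87.1 CPM in injured inhibitor, and was named after its values were seen. Its high libraries were injured placebo 2 and 3. Macrophage sums were 755 and 711 CPM there, progenitor sums 734 and 666 CPM and tendon sums 435 and 403 CPM. The part of any of those cells was not tested.

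Bhlhe40, a transcriptional repressor that TGF-beta induces and that also serves the circadian clock, was at 147, 146, 122 and 167 CPM in injured placebo and at 99.8, 99.5, 81.4 and 107 CPM in injured inhibitor. These groups did not overlap, at a log2 difference of -0.59 ± 0.12 (adjusted p = 0.15). In healthy quadriceps it was at 164, 169, 140 and 132 CPM with placebo and at 96.2, 102, 85.9 and 120 CPM with inhibitor, again apart, at -0.58 ± 0.12 (adjusted p = 0.57). Without the 4 libraries high in Prg4 the values were -0.69 and -0.62. Smad2, which Tgfbr1 phosphorylates, was at 15.7, 17.1, 16.6 and 16.4 CPM in injured placebo and at 13.2, 14, 12.8 and 12.6 CPM in injured inhibitor, without overlap, at -0.32 ± 0.10 (adjusted p = 0.22) and at -0.28 without those 4 libraries. In healthy quadriceps it was at -0.10 ± 0.10.

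Nrros, which holds latent TGF-beta on myeloid cells, was at 4.65, 14.8, 12.5 and 3.53 CPM in injured placebo and at 2.25, 2.22, 3.35 and 3.14 CPM in injured inhibitor, at -1.69 ± 0.50 (adjusted p = 0.22). Its high libraries were again injured placebo 2 and 3, and the value was -0.57 without the 4 libraries high in Prg4. Itgb6, the integrin subunit that releases TGF-beta from its propeptide in epithelia, was higher in every injured inhibitor library than in any injured placebo library, at 0.38 ± 0.11 (adjusted p = 0.22). So were the ubiquitin ligase Smurf2 at 0.30 ± 0.09 and the phosphatase Ppm1a at 0.29 ± 0.09, both of which are known to limit SMAD signalling (adjusted p = 0.22 each). Tgfbr3, the co-receptor betaglycan, was at -0.34 ± 0.12 and the target Junb at -1.20 ± 0.43 (adjusted p = 0.24 each). In the 12 libraries low in Prg4, Ppm1a was at 0.18, Smurf2 at 0.25, Itgb6 at 0.35, Tgfbr3 at -0.48 and Junb at 0.03. Between injured inhibitor and injured placebo, 2.77% of all genes were free of overlap as higher and 2.87% as lower. With all 16 libraries, Itgb6 was also higher in every injured than in any healthy inhibitor library, at 0.30 ± 0.11. Of the 60 genes it alone passed an unadjusted p of 0.05 in that comparison, beside 1.31% of all genes. For the inhibitor in healthy quadriceps Itgb6 was at 0.11 ± 0.11.

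Under placebo, 4 of the 60 passed an unadjusted p of 0.05 as higher in injured quadriceps and 1 as lower, beside 4.61% and 2.63% of all genes. Nrros was at 1.22 ± 0.49, the integrin subunit Itgb1 at 0.26 ± 0.11, the sphingosine kinase Sphk1 at 1.47 ± 0.65 and the cell cycle inhibitor Cdkn1a at 0.93 ± 0.42, while Zfyve9, which brings Smad2 to the receptor, was at -0.30 ± 0.14 (adjusted p = 0.64 each). With the 4 libraries high in Prg4 left out, Nrros was at 0.57, Itgb1 at 0.20, Sphk1 at 0.40, Cdkn1a at 0.48 and Zfyve9 at -0.13. Sphk1 was at 0.56 without injured placebo 2 alone. The median over the 19 targets was 0.54, and 0.08 in the 12 libraries low in Prg4. In all libraries 16 of them lay above 0, as 51.1% of all genes did. In healthy quadriceps the inhibitory Smad7 was at 9.96, 9.98, 8.49 and 8.64 CPM with placebo and at 12.2, 10.9, 15.5 and 13.6 CPM with inhibitor, without overlap, at 0.49 ± 0.20 (adjusted p = 1). The matrix gene Postn was at 3.04, 9.49, 9.57 and 551 CPM in healthy placebo and at 13.2, 4.55, 9.61 and 5.35 CPM in healthy inhibitor, so that healthy placebo 4 alone sets its log2 difference of -4.13 ± 1.70 (adjusted p = 1), which was 0.16 without that library.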

How the data were processed

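RNA of mouse quadriceps was measured in 16 libraries of 4 groups. The deposited table held expected counts (estimated counts per Ensembl gene, not normalized, 33.8% of values not whole), made with STAR, Partek and DESeq2 and GRCm38/mm10 per the submitters' processing notes, which give no role, order or version. Each gene reached 10 counts in at least 1 library. Symbols, coordinates and exon lengths came from GENCODE M21 by Ensembl ID (17338 genes matched, 32 did not), and promoter windows from RefSeq.

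Counts were rounded to whole numbers. The filter filterByExpr (minimum count 10) took out 1959 genes, library sizes were normalised by TMM, and a model of 4 group means was fitted with edgeR 4.0.16 (R 4.3.3), using its robust quasi-likelihood test. It had 12 residual degrees of freedom and a common biological coefficient of variation of 0.284. Tests of the 5 comparisons were two-sided, and p-values were adjusted over 15411 genes by the Benjamini-Hochberg method at a threshold of 0.05. Levels are CPM scaled by TMM, and likeness used log2 CPM with a prior count of 2. Within-animal log2 ratios added 0.1 CPM to each level. There were 0 pairs of libraries with identical values, and 96% of genes was the least by which a pair differed. P-values set a difference between groups against the spread between these libraries. The main model took the libraries as independent, without the pairing of limbs.

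The members, the gene lists and the limit of 100 CPM for Prg4 were chosen with earlier results of these data known. The rule for named genes was all members in every comparison, the 2 genes with the smallest p of each pathway role in each comparison and any called, the 3 genes most like each member, and fixed markers; a subset of these is printed, picked after their values were seen.

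Healthy and injured quadriceps of 1 animal share the stem of their library name and the replicate number, which is where the pairing comes from. Deviations from the group means correlated between the limbs of an animal at 0.47, -0.18, -0.11 and -0.53 with placebo and at 0.23, -0.044, -0.011 and -0.097 with inhibitor (animals 1 to 4). Alternatives were DESeq2 size factors, no filter, the DESeq2 test (version 1.42.0), voom with sample quality weights in limma 3.58.1, only the libraries compared, the animal or replicate number as a block, each library left out in turn, and the fit without the 4 libraries high in Prg4 (8 residual degrees of freedom). Protein sequences were not used here.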

Additional observations from a re-analysis of the deposited data

Results flagged for a closer look

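In 3 of the 36 sets of 4 libraries examined (9 members in 4 groups), the highest library stood apart from its group by Dixon's criterion, which sets the gap to the next library against the group's range and which chance passes in about 1 of 20 sets. Ltbp2 was at 12.7 CPM in healthy placebo 4, with a gap of 0.958 of the range. Ltbp3 was at 86.7 CPM in healthy placebo 4 (0.866) and at 95.9 CPM in injured placebo 2 (0.856).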

How the results depend on the processing

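Of the 9 members 0 were called in any of the 5 comparisons under any alternative run. Without the 4 libraries high in Prg4, log2 differences changed sign for injury with placebo in Tgfb1 (-0.03), Tgfb2 (-0.01), Ltbp2 (-0.00) and Ltbp4 (0.07). In injured quadriceps with inhibitor they did so in Tgfb1 (0.45), Tgfb3 (0.19), Ltbp1 (0.15), Ltbp2 (0.02), Ltbp3 (0.09) and Junb (0.03). In healthy quadriceps with inhibitor they did so in Tgfb1 (0.23), Tgfb3 (0.06), Tgfbr2 (0.01), Ltbp1 (0.14), Fbn2 (0.71) and Mmp14 (0.55), and for the difference of injury effects in Tgfb1 (0.22), Tgfb3 (0.13), Ltbp1 (0.02) and Ltbp2 (0.72). With limma-voom, Tgfb2 (-0.01) and Ltbp4 (0.02) changed sign for injury with placebo, Tgfbr1 (0.01) for injury with inhibitor, and Tgfb1 (0.12) and Tgfb3 (0.02) for the inhibitor in healthy quadriceps. Without a filter, Tgfb2 was at -0.00 for injury with placebo, and Tgfb3 at 0.00 for the inhibitor in injured quadriceps and at 0.01 for the difference. With DESeq2 or its size factors, Tgfb3 was at 0.00 for the difference. The median over the members also changed sign for the inhibitor without the 4 libraries high in Prg4. It was then 0.09 in injured and 0.14 in healthy quadriceps. The cause of these changes was not tested.

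Leaving out 1 library at a time, these results changed sign within the ranges given. For injury with placebo they were Tgfb2 -0.05 to 0.06, Tgfbr1 -0.06 to 0.18, Tgfbr2 -0.04 to 0.59, Ltbp2 -0.65 to 2.46, Ltbp3 -0.07 to 0.18 and Ltbp4 -0.14 to 0.11. For injury with inhibitor they were Tgfb1 -0.12 to 0.24, Tgfbr1 -0.09 to 0.03, Tgfbr2 -0.12 to 0.03, Ltbp2 -0.49 to 0.72 and Ltbp3 -0.09 to 0.03. In injured quadriceps, inhibitor against placebo, they were Tgfb3 -0.14 to 0.09 and Ltbp3 -0.12 to 0.08. In healthy quadriceps, inhibitor against placebo, they were Tgfb1 -0.19 to 0.31, Tgfb2 -0.05 to 0.17, Tgfb3 -0.08 to 0.13, Tgfbr2 -0.60 to 0.05, Ltbp1 -0.37 to 0.20, Ltbp3 -0.01 to 0.15, Fbn2 -5.21 to 0.63, Mmp14 -1.99 to 0.61 and Postn -4.54 to 0.16. For the difference of injury effects they were Tgfb3 -0.13 to 0.09, Tgfbr1 -0.21 to 0.04, Tgfbr2 -0.63 to 0.00, Ltbp2 -2.28 to 0.84, Ltbp3 -0.22 to 0.03 and Ltbp4 -0.23 to 0.01.

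With the animal as a block, the pairing left Tgfb1 at 0.76 (adjusted p = 0.7) for injury with placebo and changed no member's call or sign. The replicate number as a block, which joins different animals in the inhibitor comparisons, changed none either, with Tgfbr1 at -0.29 (adjusted p = 0.36) in injured quadriceps. At 3 to 481 counts per library, depth limits Ltbp2 most.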
